A study of Mus musculus with 10 samples.

Results

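Murine Mll-AF9 leukaemia cells that carried an shRNA against Meis1 held 3.19-fold less Cdk2 transcript than cells with the empty vector, and the fall was present in all 5 pairs. Cdk2, the kinase that binds cyclins E and A and drives entry into and passage through S phase, was the one gene of 10 interphase cyclins and cyclin-dependent kinases (CDKs) whose representative probe set passed the test. Ccna2 (cyclin A2) fell 1.41-fold by 1 of its 2 probe sets, a call lost when pair 1, 2, 3 or 4 was left out. Cdk6, Ccne2 and the other Ccna2 probe set were lower in every shRNA array than in every control array, by 1.28-fold to 1.34-fold in the brighter probe sets, but had adjusted p between 0.0561 and 0.128. Cdk1 and Cdk4 did not pass the test, nor did the D cyclins, of which Ccnd2 was higher in all 5 pairs by its representative probe set. When the 3 prime to 5 prime signal ratio of control probe sets was added as a covariate, 0 of 45037 probe sets were called.

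The set holds the 10 genes Cdk1, Cdk2, Cdk4, Cdk6, Ccnd1, Ccnd2, Ccnd3, Ccne1, Ccne2 and Ccna2. It was chosen by name with earlier results of these data known. It takes all probe sets whose single platform gene symbol was 1 of the 10. That gave 27 of the 45037 probe sets tested, and 10 of 18193 genes. A gene is counted once through its representative probe set, the one with the highest mean log2 level over all 10 arrays. The cells, line number 4166, carry the Mll-AF9 fusion in both groups. One group (control, n = 5) was transduced with an empty lentiviral vector, which expresses no hairpin, and the other (shRNA, n = 5) with a lentivirus that carried a Meis1 shRNA construct. Both were selected with puromycin and profiled 48 hours after transduction, in IMDM with 15% serum and 2 ng/ml interleukin 3, and samples are paired by number. The labels give neither whether the line is 1 clone nor whether the pairs are separate cultures, so p-values cover only sample-to-sample spread, part of which may be technical.

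A cell passes from G1 into S phase when CDKs, active only with a cyclin partner, phosphorylate the retinoblastoma protein and its relatives and free E2F transcription factors. The D cyclins act with Cdk4 and Cdk6 early in G1, the E cyclins with Cdk2 at the G1/S boundary, cyclin A2 with Cdk2 in S phase and with Cdk1 later, and Cdk1 carries cells into mitosis. Several of these genes, Ccne1, Ccne2, Ccna2 and Cdk1 among them, are themselves E2F targets. Cdk6 is a well-known dependency of leukaemias with MLL fusions.

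Meis1, the target of the shRNA, was lower in each pair by its bright probe set. This probe set, 1450992_a_at, fell 2.13-fold (log2 change -1.09, SE 0.09, adjusted p = 0.000767 by limma). The dim Meis1 probe sets 1443260_at and 1459423_at changed by 0.09 and 0.11 (adjusted p = 0.694 and 0.664). The values are RMA intensities, with a median per array between 6.24 and 6.70. Levels of different probe sets depend on their probes, so no gene's level is set against another's. All changes are log2 differences, shRNA minus control, from a limma fit that blocks on the pair, and adjusted p-values (Benjamini-Hochberg) are taken over all 45037 probe sets with a threshold of 0.05. In the actin and Gapdh control probe sets, signal at the 3 prime end over that at the 5 prime end, called the RNA integrity ratio here, was higher with the shRNA in all 5 pairs (log2 ratio 0.28 ± 0.06 against 0.37 ± 0.02, SD, n = 5; exact sign-flip permutation p = 0.0625, the smallest that 5 pairs allow). A fit with this ratio as a covariate is given beside the results it touches. That fit called 0 of the 45037 probe sets by limma, with 2504 at an unadjusted p under 0.05 against 6663 without the ratio. In the myeloid list Mpo, Elane, Prtn3, Cd34 and Ptprc were bright. Csf1r (control intensity 12.7 ± 2.50, SD, n = 5) and Fcgr3 (8.18 ± 1.60) were dim, and Itgam was low (32.1 ± 12.2). Of the 9 markers 1, Kit, was called (lower), where 2.34% of all genes were called lower, or 5.16% of those with a mean log2 level above 5. The 16 measured markers of erythroid, lymphoid, megakaryocytic and stromal cells were all dim. Their summed intensities per array and cell type were 17.7 to 31.0 in controls and 20.8 to 29.0 with the shRNA. None was called, beside 2.34% of all genes called lower and 0.813% called higher. The 4 mast cell and basophil markers summed to 290 to 614 in controls and 232 to 363 with the shRNA, nearly all from Mcpt8 (log2 change -0.45, adjusted p = 0.125). Their part in the results was not tested. In bulk RNA, fewer cells in a cycle phase and less transcript per cell cannot be told apart.

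Cdk2 had the largest change of the set. Its probe set 1416873_a_at read 362, 339.9, 317.4, 370.2 and 345.3 in controls 1 to 5 and 127.6, 76.6, 117.9, 115.8 and 113.7 in their shRNA partners. The groups were far from overlapping, and shRNA 2 was the lowest array. The mean intensity was 347 ± 20.6 (SD, n = 5) in controls and 110 ± 19.6 (SD, n = 5) with the shRNA, a 3.19-fold fall (log2 change -1.67, SE 0.12, 95% interval -1.94 to -1.41, adjusted p = 0.00048 by limma). The pair differences were -1.50, -2.15, -1.43, -1.68 and -1.60, all below 0 (exact permutation p = 0.0625 by sign flips, two-sided). Among 18193 genes it had the 6th lowest change. With each pair left out in turn the change lay between -1.73 and -1.55 (adjusted p 0.00121 to 0.00528). With the RNA integrity ratio in the model the change was as large, -1.73 (SE 0.22), but the adjusted p was 0.164 (unadjusted 6.54e-05). The second Cdk2 probe set, 1447617_at, read 3.8 to 4.4 in controls and 3.4 to 4.2 with the shRNA, below the array medians.

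**Figure D1:**
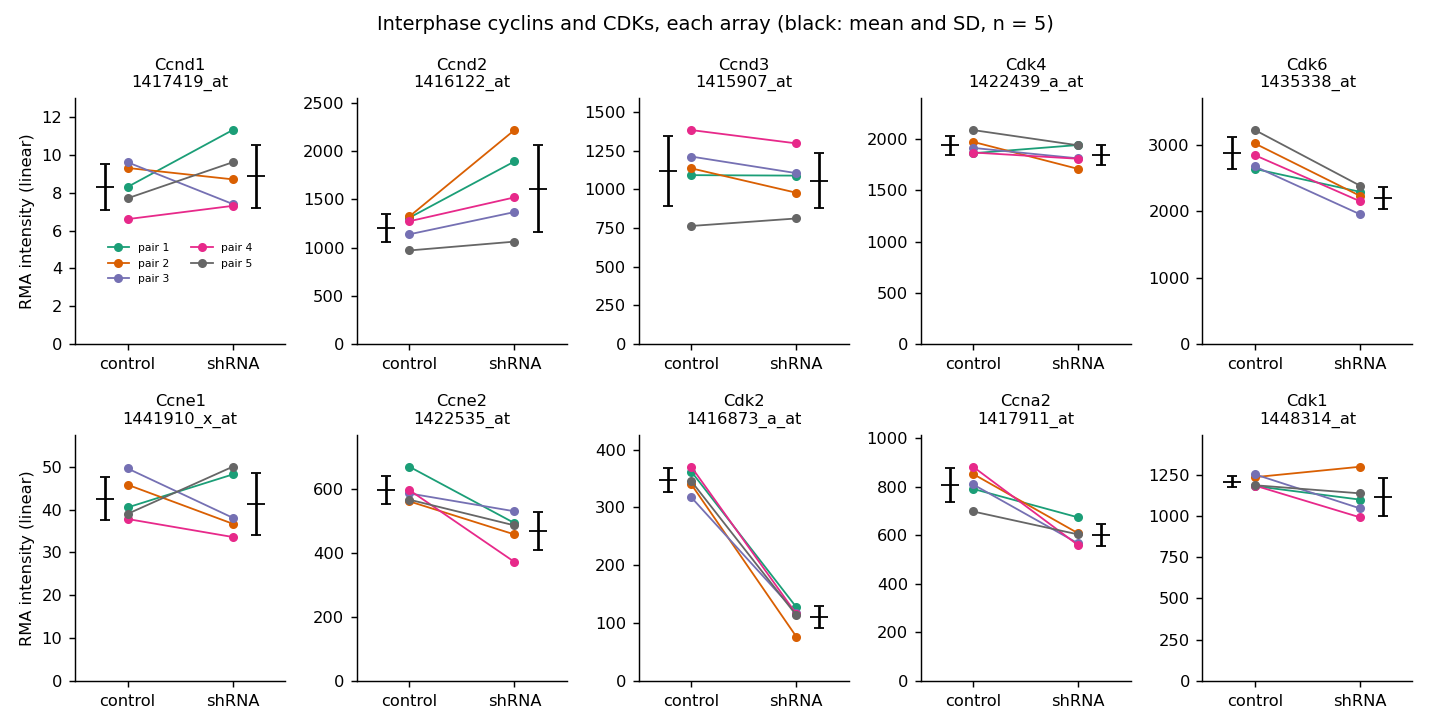
RMA intensity (linear axis from 0) of the representative probe set of each gene in each array, with lines joining the control and shRNA array of a pair and black marks for the mean and SD (n = 5). Cdk2 drops in every pair from 317.4 or more to 127.6 or less. Cdk6, Ccne2 and Ccna2 are lower by less, without overlap between the groups. Ccnd2 is higher in each shRNA array than in its partner, with pair 5 lowest.

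The difference in response between Cdk2 and the other kinases of the set was tested by pair. The Cdk2 change was lower than that of Cdk1 (difference of log2 changes -1.55 ± 0.40, SD, n = 5 pairs), lower than that of Cdk4 (-1.60 ± 0.22) and lower than that of Cdk6 (-1.29 ± 0.27). Each difference had the same direction in all 5 pairs. Each had an exact permutation p of 0.0625 (sign flips over pairs, two-sided), the smallest possible, or 0.0781 after Benjamini-Hochberg adjustment over 5 comparisons, so the threshold of 0.05 could not be reached with 5 pairs.

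The promoters of Cdk2, which fell, and Cdk1, which did not pass the test, are shown because both hold an E2F-type match and a CCAAT box. The stretches are the 250 bases before the RefSeq start site, 5′ to 3′ on the gene's strand in GRCm38.p6, with matches to TTTCGCGC, TTTGGCGC, TTTCCCGC or TTTGCCGC (E2F type) and to CCAAT, on either strand, in capitals.
Cdk2, chr10:128705052-128705301, minus strand: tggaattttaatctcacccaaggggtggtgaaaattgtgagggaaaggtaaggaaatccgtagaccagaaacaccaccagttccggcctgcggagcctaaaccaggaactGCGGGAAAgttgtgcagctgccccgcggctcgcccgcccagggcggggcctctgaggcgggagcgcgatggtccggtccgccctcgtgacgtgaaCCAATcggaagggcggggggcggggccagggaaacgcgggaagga
Cdk1, chr10:69352913-69353162, minus strand: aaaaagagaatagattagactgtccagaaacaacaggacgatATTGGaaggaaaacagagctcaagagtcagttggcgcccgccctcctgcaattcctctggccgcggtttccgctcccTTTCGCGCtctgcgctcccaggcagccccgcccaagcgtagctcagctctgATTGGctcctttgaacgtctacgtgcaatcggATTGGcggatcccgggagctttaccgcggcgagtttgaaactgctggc
In Cdk2 the E2F-type match began 140 bases and the CCAAT box 45 bases before the start site, and 5 matches to the GC box GGGCGG were found. The Cdk1 stretch had 1 E2F-type match, 3 CCAAT boxes, 2 GC boxes and 2 matches to TTTGAA, the cell cycle homology region. An E2F-type match was present in 1.86% of all 32851 RefSeq promoter stretches of this length, CCAAT in 33.8%, GGGCGG in 32.7%, TTTGAA in 16% and the MEIS motif TGACAG in 15.9%. Promoters were matched for 6 of the 10 genes, among them Cdk4, Cdk6, Ccnd3 and Ccne1, whose stretches held no E2F-type match. Ccnd1, Ccnd2, Ccne2 and Ccna2 had no promoter stretch to search, so nothing is known here of their matches. TGACAG was in none of the stretches of the 6. A match describes these letters and is not a measured site.

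The D cyclins sense growth factor signals in G1. Ccnd2 leaned upward without passing. Its probe set 1416122_at read 1310, 1323, 1138, 1273 and 970.7 in controls 1 to 5 and 1892, 2217, 1368, 1520 and 1062 with the shRNA. Every shRNA array was above its partner, but the groups overlapped, since shRNA 5 was below 4 of the 5 controls. The change was 0.39 (SE 0.11, 95% interval 0.14 to 0.63, adjusted p = 0.125 by limma), with pair differences of 0.53, 0.74, 0.27, 0.26 and 0.13. Of the 6 other Ccnd2 probe sets, 1430127_a_at (0.25), 1434745_at (0.41), 1448229_s_at (0.25) and 1416123_at (0.31) were higher in all 5 pairs, with adjusted p from 0.0745 to 0.266. 1455956_x_at changed by 0.15 and was lower in pairs 3 and 5, and 1416124_at, the dimmest of the 7, changed by -0.03. The probe sets thus did not give 1 answer, and those marked s or x were designed on sequence shared with other transcripts. Ccnd2 passed with eBayes trend and robust settings (adjusted p = 0.00608) and when testing was limited to mean log2 levels above 5 (0.0400). Both settings also called a larger share of all probe sets.

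Ccnd3 was near level. Its bright probe set 1415907_at read 1091, 1135, 1211, 1382 and 763 in controls 1 to 5 and 1088, 977.5, 1104, 1296 and 811.5 with the shRNA, so array pairs differed more from each other than the groups did, with pair 5 lowest in both. The change was -0.07 (95% interval -0.27 to 0.13, adjusted p = 0.785). The Ccnd2 change exceeded that of Ccnd3 in all 5 pairs, by 0.46 ± 0.33 (SD, n = 5; exact sign-flip permutation p = 0.0625, adjusted 0.0781). Ccnd1 was dim by each of its 3 probe sets, at 3.4 to 9.6 in controls and 3.5 to 11.3 with the shRNA, and changed by 0.08, -0.19 and 0.11 (adjusted p 0.65 to 0.833). The 2 other Ccnd3 probe sets, 1438805_at and 1444323_at, were equally dim (5.6 to 12.5 over all arrays). Ccnd1 1417420_at changed by -0.70 in place of -0.19 with the RNA integrity ratio in the model (unadjusted p = 0.0103, adjusted 0.718 by limma).

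Of the kinase partners of the D cyclins, Cdk6 was lower with the shRNA and Cdk4 was close to level. Cdk6 probe set 1435338_at read 2634, 3016, 2671, 2840 and 3218 in controls 1 to 5 and 2290, 2230, 1953, 2149 and 2383 with the shRNA. All shRNA arrays were below all controls. The change was -0.38 (SE 0.09, 95% interval -0.58 to -0.19), 1.31-fold lower, with an adjusted p of 0.0561 by limma. The second bright probe set, 1455287_at, gave the same size (-0.38, adjusted p = 0.0586), and all its shRNA arrays (1006 to 1112) were below all controls (1223 to 1514). The third, 1460291_at, was dim, at 20.4 ± 7.31 in controls and 8.80 ± 2.40 with the shRNA (SD, n = 5), and its change of -1.21 did not pass (adjusted p = 0.0673). Without pair 4, where it went from 32.9 to 4.7, its change was -0.81 and its adjusted p 0.0213. The representative Cdk6 probe set passed under some alternatives, among them 1 probe set per gene tested (adjusted p = 0.0357), where a larger share of all genes was called. It did not pass without any 1 pair (0.0819 to 0.197). With the RNA integrity ratio in the model the 2 bright probe sets changed by -0.42 and -0.43 (unadjusted p = 0.0337 and 0.0311), while the dim 1460291_at changed by -0.18 (unadjusted p = 0.612).

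Cdk4 had 3 bright probe sets with small changes. The representative, 1422439_a_at, read 1863, 1974, 1915, 1870 and 2089 in controls and 1943, 1710, 1813, 1809 and 1940 with the shRNA. The groups overlapped, and the change was -0.08 (95% interval -0.27 to 0.12, adjusted p = 0.759). 1422441_x_at, also marked x, and 1422440_at changed by -0.13 and -0.09 (adjusted p = 0.558 and 0.718), and the lowest bound of the 3 intervals was -0.32.

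**Figure D2:**
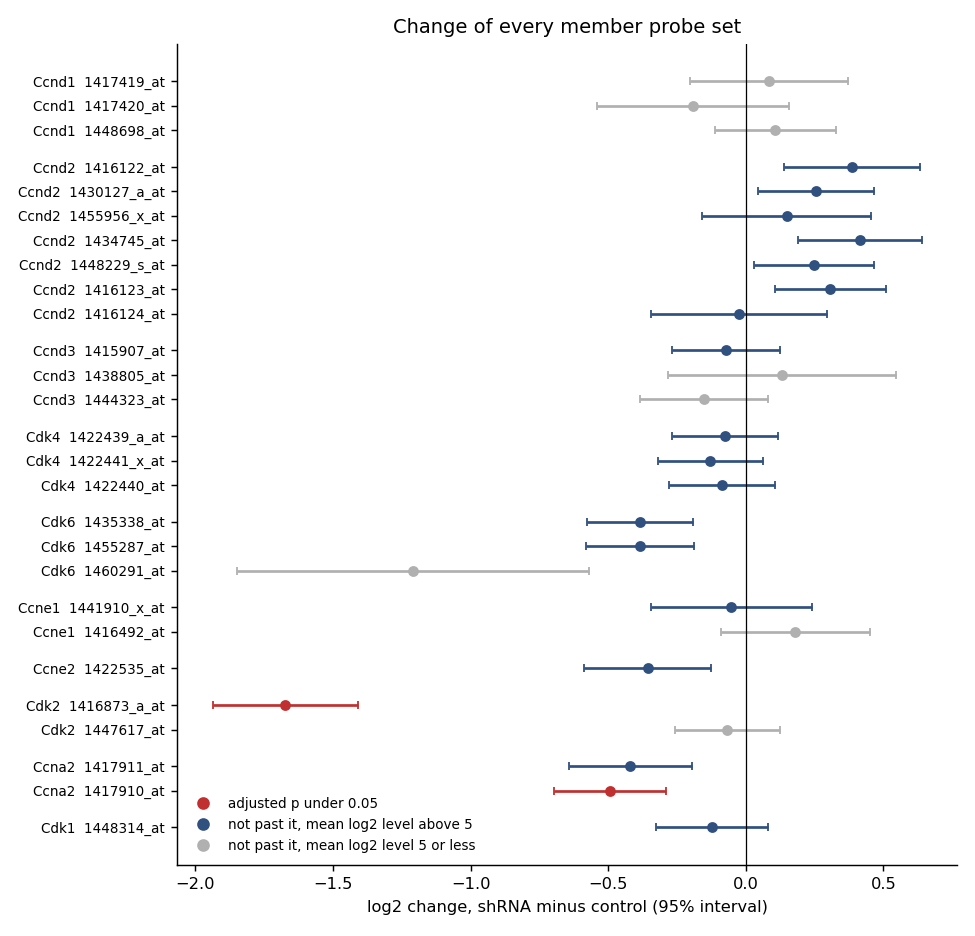
Log2 change (shRNA minus control) of all 27 probe sets, grouped by gene, with 95% intervals from the limma fit; colours mark adjusted p under 0.05 and, for the rest, whether the mean log2 level is above 5. Cdk2 1416873_a_at lies far to the left at -1.67, and Ccna2 1417910_at (-0.49) is the other probe set past the threshold. The bright Cdk6, Ccne2 and Ccna2 probe sets lie between -0.49 and -0.36.

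The E cyclins activate Cdk2. Ccne2, with 1 probe set (1422535_at), read 667.9, 559.9, 584.7, 595 and 565.2 in controls 1 to 5 and 492.2, 456.8, 529, 371 and 485 with the shRNA. The highest shRNA array was below the lowest control. The change was -0.36 (SE 0.10, 95% interval -0.59 to -0.13, adjusted p = 0.128 by limma). The change passed among mean log2 levels above 5 (0.0368) and with trend and robust settings (0.0164), where a larger share of all probe sets was called too. With the RNA integrity ratio in the model it was -0.11. Ccne1 had 2 probe sets, of which only 1416492_at had a mean log2 level below 5. The other, 1441910_x_at, represents the gene and is marked x, so it too was designed on shared sequence. It read 37.8 to 49.6 in controls and 33.6 to 50 with the shRNA, and changed by -0.05 (95% interval -0.34 to 0.24), or 0.07 after quantile normalization. 1416492_at changed by 0.18 (adjusted p = 0.566). The changes of Ccne1 and Ccne2 differed by 0.30 ± 0.41 (SD, n = 5; exact sign-flip permutation p = 0.25, adjusted 0.25), which did not exceed the spread between pairs.

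Ccna2, the cyclin of S phase and G2, was lower by both probe sets. 1417910_at read 688.5, 668.3, 703.2, 729.8 and 628.4 in controls 1 to 5 and 496.5, 504.9, 455.8, 467.5 and 500.6 with the shRNA. No shRNA array came near the lowest control. It fell 1.41-fold (log2 change -0.49, SE 0.09, 95% interval -0.70 to -0.29, adjusted p = 0.0264 by limma). Leaving out pair 1, 2, 3 or 4 ended the call (adjusted p 0.0759 to 0.122), and with the RNA integrity ratio in the model the change was -0.34 (unadjusted p = 0.067). The slightly brighter 1417911_at, which represents the gene, read 791.2, 852.6, 809.5, 882.3 and 698.1 in controls and 673.7, 608.2, 566.5, 559.4 and 603.5 with the shRNA. Its groups did not overlap either, and its change of -0.42 (SE 0.10) had an adjusted p of 0.0677, or 0.0354 without the pair block and 0.0498 without pair 5. The change of 1417911_at was -0.24 with the RNA integrity ratio in the model (unadjusted p = 0.204).

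Cdk1, the kinase of mitotic entry, did not pass. Its probe set 1448314_at read 1180, 1234, 1251, 1183 and 1185 in controls 1 to 5 and 1098, 1297, 1045, 990.8 and 1136 with the shRNA. The groups overlapped, with shRNA 2 above every control. The change was -0.12 (SE 0.09, 95% interval -0.33 to 0.08, adjusted p = 0.616 by limma), and 0.0014 with the RNA integrity ratio in the model.

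**Figure D3:**
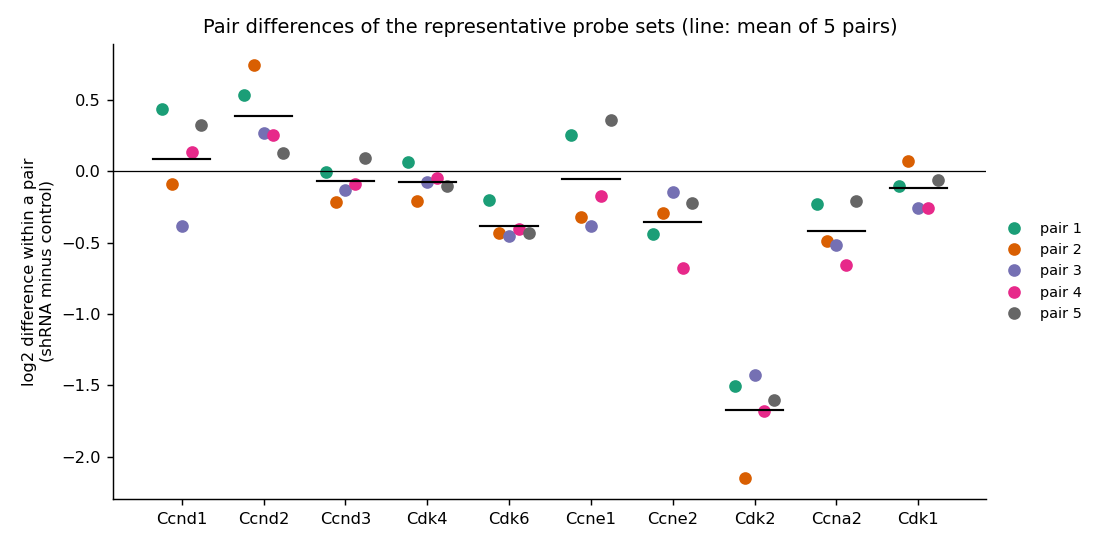
Log2 difference within each pair (shRNA minus control) of the representative probe set of each gene, 1 point a pair, with a line at the mean of 5 pairs. Cdk2 lies between -2.15 and -1.43, apart from the rest. Cdk6, Ccne2 and Ccna2 are below 0 in all pairs, Ccnd2 is above 0 in all, and Ccnd1, Ccnd3, Cdk4, Ccne1 and Cdk1 lie on both sides of 0.

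Counted over the set, 1 of 10 genes was called lower, where 2.34% of all 18193 genes were, or 5.16% of the 6721 with a mean log2 level above 5. The members were chosen with earlier results of these data known, so the shares are set beside the background only as a description. None was called higher by limma (background 0.813%), with 1, Ccnd2, higher at an unadjusted p under 0.05 and 4 lower, where 6.48% and 10.7% of all genes were. Above the log2 level of 5, where 9 of the 10 lie, 20.7% of genes were lower by that measure. Over probe sets, 2 of 27 were called lower (background 1.96%, or 5.55% above the log2 level of 5, where the set has 2 of 19). The groups did not overlap, with the shRNA lower, in 7 of 27 (background 2.75%). Above the log2 level of 5 this held for 6 of 19, against 8.06% of all such probe sets, and these 6 come from only 4 genes. The median change of the 10 genes was -0.10, beside 0.0040 over all genes. The number of genes called lower depended on the test. A larger share of all features was called as well with 1 probe set per gene, among the brighter probe sets, or with trend and robust settings. The background shares above therefore do not apply to those counts. In the set the count was 3 (Cdk2, Cdk6 and Ccna2) when 1 probe set per gene was tested. It was 4 (with Ccne2) among the brighter probe sets or with trend and robust settings. After quantile normalization it was 1, and it was 0 with the RNA integrity ratio in the model. Ccnd2 was called higher as well among the brighter probe sets and with trend and robust settings. Cdk2 was called in each of these but the last.

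Around the set, the regulators of CDKs moved both ways. Of 34 measured, 3 were called lower, 1 higher and 30 not, with a median change of -0.15. Of all genes 2.34% were called lower and 0.813% higher. Above the log2 level of 5, where 27 of the 34 lie, 5.16% of genes were called lower. The regulators had a median of 0.0036 with the RNA integrity ratio in the model, and 17 of 34 were below 0. Cdkn1a, the inhibitor p21 that blocks Cdk2 complexes, rose by 0.75 (SE 0.11, adjusted p = 0.0111 by limma). It read 1492, 1428, 1691, 1360 and 1352 in controls 1 to 5 and 2795, 2612, 2667, 2653 and 1708 with the shRNA, without overlap, though shRNA 5 was only just above the highest control. Leaving out pair 1, 2 or 4 ended the call (adjusted p at most 0.0623), as did the RNA integrity ratio in the model (0.47, adjusted p = 0.861). Dtl, which directs the destruction of replication licensing factors, fell (-0.61, adjusted p = 0.0195), as did Rbl1, the pocket protein p107 (-0.55, adjusted p = 0.0272), and E2f4, a repressive E2F, by a dim probe set (16.1 to 11.6, adjusted p = 0.0473). Without pair 1, 2, 3 or 4 none of these 3 passed, and E2f4 did not pass without pair 5 either. E2f4 also did not pass without the pair block (adjusted p = 0.244), with a random block (0.18), after quantile normalization (0.0655) or with trend and robust settings (0.0933). Dtl changed by -0.37 and Rbl1 by -0.31 with the RNA integrity ratio in the model. Of 8 activating factors (the CDK-activating kinase, Cdc25 phosphatases and Cks proteins) 0 were called by limma, with 3 lower and 0 higher at an unadjusted p under 0.05 (10.7% and 6.48% of all genes). Above the log2 level of 5, where 7 of the 8 lie, 20.7% of genes were lower by that measure.

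Genes of S phase, a list chosen with earlier results of these data known, leaned downward together. All 33 measured had a change below 0, with a median of -0.37, and 7 were called lower and 0 higher (30 lower and 0 higher at an unadjusted p under 0.05 by limma). Of all genes 2.34% were called lower and 10.7% were lower at an unadjusted p under 0.05, or 5.16% and 20.7% of those with a mean log2 level above 5, where 32 of the 33 lie. The called genes with the largest changes were Gins2, a subunit of the replicative helicase (-1.38, adjusted p = 0.000767), and Tk1, thymidine kinase (-1.18, adjusted p = 0.00724). Then came Gins1, of the same complex as Gins2 (-0.96, adjusted p = 0.0272), Cdc6, which loads that helicase (-0.75, adjusted p = 0.00993), and Ung, a uracil glycosylase (-0.52, adjusted p = 0.0436). Gins2, Tk1 and Cdc6 passed whichever pair was left out, Gins1 did not without pair 1 or 3, and Ung did not without any 1 pair. Ung also did not pass without the pair block (adjusted p = 0.102), with a random block (0.0708) or after quantile normalization (0.0664). Gins1 did not pass without the pair block (0.0534) or with the pseudocount of 16 (0.0593). With the RNA integrity ratio in the model Gins2 changed by -1.18, Tk1 by -0.59, Cdc6 by -0.45, Gins1 by -0.34 and Ung by -0.24. The count was 3 or 4 without pair 1, 2, 3 or 4, 8 without pair 5, and 0 with the RNA integrity ratio in the model, where 32 of the 33 stayed below 0 with a median of -0.18. Mki67, a marker of cycling cells, changed by -0.09 (adjusted p = 0.707; named after its value was seen). Top2a, of the same list and also named after its value was seen, changed by -0.26 (adjusted p = 0.183 by limma). It was lower in all 5 pairs.

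The other cyclins and CDKs, which act in mitosis, transcription or outside the cycle, showed no shared direction as a list. Of 26 measured, 0 were called by limma, with 3 lower and 2 higher at an unadjusted p under 0.05, beside 10.7% and 6.48% of all genes. Above the log2 level of 5, where 21 of the 26 lie, 20.7% of genes were lower by that measure. The median change of the 26 was 0.0089, with 12 below 0 and 14 above. The 3 lower genes were Ccnb2 (-0.27), Ccnc (-0.39) and Ccnf (-0.29), each lower in all 5 pairs. The 2 higher were Cdk14 (0.48) and Cdk18 (0.23), both dim. Ccnb1 was not measured.

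**Figure D4:**
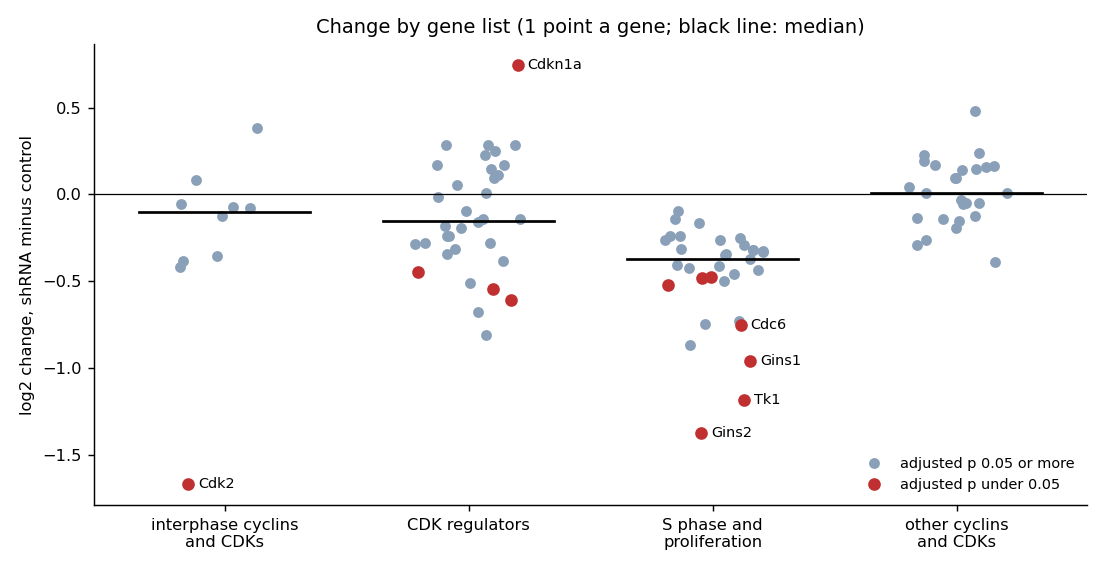
Log2 change (shRNA minus control) of the representative probe set of each gene in 4 lists, with a black line at the median and red points for adjusted p under 0.05 in the fit over all probe sets. Medians are -0.10 in the interphase set, -0.15 among CDK regulators, -0.37 among S phase genes and 0.0089 among other cyclins and CDKs. Cdk2 is the lowest point of all 4 lists.

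The genes whose profile over the 10 arrays was most like that of Cdk2 were not cyclins or CDKs. Likeness was the root mean square difference of log2 levels, each centred on its own mean, among 6720 genes with a mean log2 level above 5. The nearest were Crot, a peroxisomal carnitine octanoyltransferase (0.21), Dynlt3, a dynein light chain (0.23), Dnajc21, a J-domain co-chaperone (0.24), Nup205, a nuclear pore subunit (0.25), and Umad1 (0.25). They fell by 2.42-fold (Dynlt3) to 3.33-fold (Dnajc21). Genes picked for likeness to Cdk2 over these same arrays must fall with it, so their falls are only described and no p-value is given. The nearest member of the set was Ccna2 at 0.66, in place 456, then Cdk6 at 0.68 and Ccne2 at 0.69. The measure weighs the size of a change, so genes with smaller changes lie farther off whatever their direction.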

How the data were processed

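RNA was hybridised to Affymetrix mouse arrays, 5 controls and 5 shRNA samples. Each deposited value is an intensity of a probe set (linear, 1.30 to 32400), made by the authors with RMA per the submitters' processing notes, which record no version or settings. All value columns belonged to the 10 arrays. Values were log2-transformed with no pseudocount. After 64 Affymetrix controls were left out, 45037 probe sets remained, of which 34945 had 1 gene symbol in the platform annotation, 932 several and 9160 none. Only those with 1 were named.

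Groups were compared with limma 3.58.1 (R 4.3.3), lmFit and eBayes, with the pair as a fixed block, two-sided, adjusted by Benjamini-Hochberg. The pairing comes from the labels' treatment protocol. Same-numbered samples deviated together, with correlations over 11215 probe sets of 0.600, 0.462, 0.339, 0.310 and 0.557 for pairs 1 to 5. Of the 5 controls, 4 correlated best with their own partner, and control 2 did so with shRNA 1. The fit was tested on simulated data. Array numbers limit the precision. Promoters are RefSeq's, build GRCm38.p6. Named were all member probe sets, Meis1, up to 5 called genes per list with the largest changes, and the 5 genes most like Cdk2. The members and lists were chosen with earlier results of these data known. Alternatives changed the block, normalization, pseudocount, filter, eBayes settings, gene summary, covariate and pairs used.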

Additional observations from a re-analysis of the deposited data

Results flagged for a closer look

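Each group of 5 arrays was searched for a lowest or highest array far from the rest by Dixon's ratio, over 54 groups of member probe sets. Chance alone flags about 1 in 20 groups, and 3 of the 54 stood out. Cdk2 1416873_a_at read 76.6 in shRNA 2, below the 113.7 to 127.6 of the other shRNA arrays, and without pair 2 the Cdk2 change was -1.55 (adjusted p = 0.00255 by limma). Cdk4 1422441_x_at read 1547 in shRNA 5, above the 1384 to 1410 of the others. The dim Cdk6 1460291_at read 4.7 in shRNA 4, below the 8.8 to 10.6 of the others.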

How the results depend on the processing

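The Cdk2 change kept its direction under all alternatives run and its call under all but 1, between -1.73 and -0.87. The latter is the mean with its dim second probe set (adjusted p = 0.00101). With the RNA integrity ratio in the model it was -1.73 (adjusted p = 0.164), and 0 probe sets, members, regulators or S phase genes were called. The ratio moves with the groups, and standard errors were larger there (Cdk2 0.22 in place of 0.12). Some other changes were smaller and some larger, such as Cdk6 1435338_at at -0.42 in place of -0.38. The S phase median was -0.18 in place of -0.37, and the regulator median 0.0036 in place of -0.15. What lies behind the lost calls was not tested. Without the replicate block (unpaired) 816 probe sets and 2 members were called, Cdk2 at an adjusted p of 2.74e-05. Counts of members and of list genes here are of those called lower. With a random replicate block there were 3 members and 5 regulators, and median centring gave 2 members. Without the block and with the random block E2f4 and Ung did not pass, nor did Gins1 without the block. The pseudocount of 16 gave 3 members, 6 regulators and 12 S phase genes. Testing only mean log2 levels above 5 gave 2040 of 11215 probe sets, where the main fit called 1116 of 45037. It gave 4 members, 7 regulators, 24 S phase genes and 3 other cyclins and CDKs. With trend and robust eBayes the same counts were 2309 of 45037, 4, 7, 27 and 1. With 1 probe set per gene tested, 739 of 18193 genes, 3 members, 5 regulators and 11 S phase genes were called. Averaging a gene's probe sets gave 3, 5 and 17. The cause of these shifts was not tested. With pairs left out in turn, probe sets ranged from 359 to 1674, members from 1 to 2, regulators from 0 to 4, S phase genes from 3 to 8, and Cdk2 from -1.73 to -1.55.

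Changes of direction concerned values that had not passed. After quantile normalization Ccnd2 1416124_at was 0.10 and Ccne1 1441910_x_at 0.072. With the covariate Cdk1 was 0.0014, Cdk2 1447617_at 0.020, Cdk4 1422440_at 0.017, Ccnd1 1448698_at -0.035, Ccnd3 1438805_at -0.28 and Ccne1 1441910_x_at 0.098. With 1 pair left out, Ccnd1 1417419_at ranged from -0.0032 to 0.20, Ccne1 1441910_x_at from -0.16 to 0.029 and Ccnd2 1416124_at from -0.19 to 0.061. Low signal limits Ccnd1, Ccne1 1416492_at and the second Cdk2 probe set.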

Other observations

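Among the control arrays alone, the set differed in how much it varied between pairs. Cdk1 was the steadiest representative probe set, with an SD of 0.04 on the log2 scale (n = 5). Ccnd3 had an SD of 0.32, the dim Ccnd1 of 0.22 and Ccnd2 of 0.19. For Ccnd3 and Ccnd2 the lowest control was number 5, as it was for Ccna2 and for S phase genes such as Tk1 and Pcna. The Cdk2 SD in controls was 0.09.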
